A study of Mus musculus with 29 samples.

Results

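The 10 genes described here are those that drive or mark protein breakdown in wasting muscle: the E3 ubiquitin ligase genes Fbxo32 (atrogin-1), Trim63 (MuRF1) and Fbxo30 (MUSA1), the FOXO transcription factor genes Foxo1, Foxo3 and Foxo4, and the autophagy genes Map1lc3b (LC3B), Gabarapl1, Sqstm1 (p62) and Bnip3. They were taken by symbol from the deposited gene table, where all 10 were found among 24770 symbols. RNA-seq was run on gastrocnemius muscle (SkM) and brown adipose tissue (BAT) of wild-type (WT) male C57BL/6J mice that carried no transgene, in 14 SkM and 15 BAT libraries. The control group (4 SkM and 3 BAT libraries) was sedentary and freely fed. The CR group (3 and 4 libraries) was sedentary under calorie restriction, with food stepped down to 70% of free intake. The EX group (4 and 4) was freely fed and ran on a treadmill at 12 m per min for 1 h on 5 days a week, and the CREX group (3 and 4) had both interventions. Interventions started at 8 weeks of age and lasted 8 weeks, and the mice of all groups were fasted for 6 h before harvest, 24 h after the last run of those that ran. Whether BAT and SkM libraries came from the same mice is not stated.

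FOXO factors sit at the end of the insulin and IGF-1 pathway: AKT phosphorylates them and keeps them out of the nucleus, and when insulin signalling falls, as in fasting, they enter it and switch on genes of protein breakdown. In skeletal muscle their best known targets are Fbxo32 and Trim63, whose products tag muscle proteins for the proteasome, together with genes of autophagy, the route by which cytoplasm and mitochondria are enclosed in membranes and delivered to lysosomes. Atrogin-1 and MUSA1 are F-box proteins that give a ligase complex its substrate, whereas MuRF1 binds sarcomere proteins by itself. LC3B and GABARAPL1 are coupled to lipid in the growing autophagosome membrane, p62 links ubiquitin-tagged cargo to it, and BNIP3 marks mitochondria for it.

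Levels are given as CPM, counts scaled by library size and TMM normalization within a tissue. Log2 fold changes are given ± their standard error. A gene was called changed between 2 groups at a Benjamini-Hochberg adjusted p under 0.05 over all genes tested and a fold change above 1.5 (edgeR quasi-likelihood test on the libraries of those groups). SkM libraries held 23050918 to 23425284 counts and BAT libraries 21047242 to 24919377, so that 3 counts stood at 0.128 to 0.130 CPM in SkM and 0.120 to 0.143 CPM in BAT, a limit that covers counting error only. The tissue labels were checked against defining markers, which matched: muscle fibre genes led by Acta1, Myh4 and Atp2a1 summed to 125237 to 142509.6 CPM in the SkM controls and 3.55 to 749.5 CPM in the BAT controls, and brown fat genes led by Fabp4, Ucp1 and Cidea summed to 15062 to 16906 CPM in the BAT controls. In SkM, Ucp1 and Elovl3 were at or near 0, while all listed brown fat genes summed to 169 to 243 CPM in controls. The sums were 155 to 235 CPM in CR, 159 to 242 CPM in EX and 98.4 to 255 CPM in CREX muscle. Some marker lists differed within and between groups. The 7 hepatocyte genes (Trf, Alb and Apoa1 among them) summed to 60.6 to 269 CPM in SkM of CR mice against 6.81 to 9.77 CPM in controls, 2.98 to 16.8 CPM in EX and 6.94 to 83.9 CPM in CREX mice, and what part these transcripts had in the results was not tested. Slow fibre genes led by Myh7, Atp2a2 and Myl3 summed to 64.8 to 776 CPM in CREX muscle against 507 to 2167 CPM in EX muscle, and muscle fibre genes in BAT ranged from 3.55 to 6949 CPM. In SkM, muscle fibre genes summed to 157986 to 219170.0 CPM in CR mice, above all controls. In BAT, every CR library was below every control in macrophage genes (35.6 to 60.6 against 68.9 to 74.8 CPM) and in summed brown fat genes (13946 to 14768 CPM in CR mice), and macrophage genes summed to 73.0 to 123 CPM in EX and 38.1 to 80.2 CPM in CREX mice. The brown fat sum rests most on its abundant genes. The mean log2(CPM + 1) of the same genes overlapped, at 9.69 to 9.93 in CR mice and 9.72 to 10.01 in controls. What part the macrophage and brown fat transcripts had in the BAT results was not tested. Fewer cells of a type and less RNA per cell cannot be told apart in such bulk libraries.

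On the build of the alignment (mm10, GRCm38), the ligase genes lie at chr15:58175879-58214932 (Fbxo32, reverse strand), chr4:134315120-134329629 (Trim63, forward) and chr10:11281330-11298052 (Fbxo30, forward). The FOXO genes lie at chr3:52268336-52353221 (Foxo1, forward), chr10:42181841-42276755 (Foxo3, reverse) and chrX:101254528-101260873 (Foxo4, forward). The autophagy genes lie at chr8:121590361-121598760 (Map1lc3b, forward), chr6:129533160-129542346 (Gabarapl1, forward), chr11:50199366-50210827 (Sqstm1, reverse) and chr7:138890836-138909519 (Bnip3, reverse). All are annotated as protein-coding genes, and counts covered their exons. Sqstm1 overlaps the protein-coding gene Mrnip on the other strand, and Map1lc3b overlaps Zcchc14 on the other strand and Gm20388 on its own. Whether the libraries kept strand is not given in the sources used here, so reads from a gene and its antisense partner may not have been told apart. RefSeq promoters on GRCm38.p6 matched 8 of the 10 genes, all but Fbxo32 and Foxo4. The 250 bases before the start of Trim63 and of Foxo1, which had the largest increases of a ligase gene and of a FOXO gene between CREX and EX muscle, are shown 5′ to 3′, with capitals for the letters matched by a motif search.
Trim63 (chr4:134314870-134315119, forward strand): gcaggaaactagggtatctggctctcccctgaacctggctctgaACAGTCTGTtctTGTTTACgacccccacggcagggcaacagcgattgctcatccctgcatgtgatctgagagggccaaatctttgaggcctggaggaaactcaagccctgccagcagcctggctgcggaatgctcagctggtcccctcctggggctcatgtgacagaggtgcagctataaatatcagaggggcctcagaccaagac
Foxo1 (chr3:52268087-52268336, forward strand): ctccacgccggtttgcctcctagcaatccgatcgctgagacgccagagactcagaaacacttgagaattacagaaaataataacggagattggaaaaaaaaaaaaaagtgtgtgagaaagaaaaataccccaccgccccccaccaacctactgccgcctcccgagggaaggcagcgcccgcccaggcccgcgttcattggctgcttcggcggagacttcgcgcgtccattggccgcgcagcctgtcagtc
The letters searched on both strands were GTAAACA (the core that FOXO proteins bind), ACANNNTGT (the core of the glucocorticoid response element) and CACGTG (the E-box bound by TFEB and its relatives). The Trim63 stretch held TGTTTAC, the FOXO core read on the other strand, at -194 to -188 from the start, and ACAGTCTGT at -206 to -198, separated by 3 bases. Of 32851 promoters of 300 bases (250 before to 50 after the start), 3.6% held the FOXO core, 6.8% the glucocorticoid core and 0.35% both. Among the 8 matched members, Trim63 alone held the FOXO core and the glucocorticoid core, and Bnip3 alone held the E-box (7.2% of all promoters), at -108 to -103. No letters of the Foxo1 stretch matched. A match is a string of letters and not a measured binding site.

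Per kilobase of exon, Sqstm1 was the most abundant of the 10 genes in control muscle at 136 ± 10.03 CPM per kb (SD, n = 4), followed by Bnip3 at 98.1 ± 7.16. Next came the ligase genes Trim63 at 53.0 ± 3.80 and Fbxo32 at 40.9 ± 10.2 CPM per kb, whose libraries overlapped, and Gabarapl1 at 32.2 ± 3.81, which overlapped Fbxo32 and Foxo4 (24.8 ± 2.65). Map1lc3b stood at 19.4 ± 0.921 CPM per kb, below all libraries of Foxo4. Its place in this order depends on the length used, which joins all annotated exons of a gene. For Map1lc3b these came to 7517 bases, nearly the whole span of the gene, and a shorter transcript would give a higher level per kb. Foxo3 (2.15 ± 0.267), Fbxo30 (1.99 ± 0.321) and Foxo1 (1.66 ± 0.170 CPM per kb) were the lowest, and each overlapped its neighbour in this order. Foxo1 was thus last of the 10 in control muscle, and in CR muscle at 8.59 ± 0.931 CPM per kb (SD, n = 3) it stood above all Foxo3 and Fbxo30 libraries.

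The first question was how calorie restriction changed these genes in muscle of sedentary mice. Between CR and control muscle 4 of the 10 genes were called: Foxo1 and Foxo3 rose, and Fbxo30 and Gabarapl1 fell, against a background of 9.60% of 13173 genes called. Neither of the ligase genes that define muscle atrophy, Fbxo32 and Trim63, was called. Between CREX and EX muscle, which asks the same of trained mice on other libraries, Foxo1, Foxo3, Trim63 and Fbxo32 rose and none of the 10 fell, with 8.87% of 13112 genes called. DESeq2 called the same number in either comparison, 4 and 4.

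Foxo1, a FOXO factor known to be induced in muscle by fasting, showed the largest change. It stood at 13.0, 13.6, 14.7 and 16.3 CPM in the 4 control libraries and at 80.7, 77.2 and 65.3 CPM in the 3 CR libraries. Every CR library was far above every control library (fold change 5.19, log2 fold change 2.37 ± 0.12, edgeR adjusted p = 9.52e-06), and by p value the gene ranked second of all genes tested. In trained mice it stood at 16.9, 16.1, 13.4 and 11.2 CPM in EX and 57.5, 66.6 and 122 CPM in CREX muscle, with CREX 3 the highest of all SkM libraries. The groups again did not overlap (fold change 5.71, log2 fold change 2.51 ± 0.28, edgeR adjusted p = 0.00421), and with each library left out in turn the log2 fold change ran from 2.10 to 2.72.

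Foxo3, which by itself can drive atrophy genes and autophagy in muscle, stood at 14.8, 15.9, 15.3 and 19.3 CPM in control and 36.9, 31.8 and 32.4 CPM in CR muscle (log2 fold change 1.05 ± 0.12, edgeR adjusted p = 5.61e-04). It stood at 18.0, 17.5, 14.9 and 13.6 CPM in EX and 33.8, 37.7 and 39.8 CPM in CREX muscle (log2 fold change 1.21 ± 0.12, edgeR adjusted p = 0.00132). The restricted libraries lay above all freely fed libraries in both comparisons, by about the same factor (fold changes 2.07 and 2.32). Both FOXO calls held in SkM when any single library was left out. Foxo4, the third member of the family, was not called: it ranged over 77.9 to 99.6 CPM in control, 75.3 to 97.8 in CR, 76.3 to 92.5 in EX and 85.5 to 98.1 CPM in CREX muscle, and all these ranges overlapped (log2 fold changes 0.03 ± 0.12 and 0.15 ± 0.10, with edgeR adjusted p = 0.886 and 0.347).

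Per kilobase, the make-up of the FOXO transcripts differed between restricted and freely fed muscle. Foxo1 was 5.80% ± 0.224 (SD, n = 4) of the summed Foxo1, Foxo3 and Foxo4 level in control muscle and 22.5% ± 3.56 (SD, n = 3) in CR muscle. It was 6.03% ± 0.902 (SD, n = 4) in EX and 22.9% ± 7.99 (SD, n = 3) in CREX muscle. Foxo4 remained the most abundant of these 3 transcripts in every group, at 86.7% ± 0.184, 65.9% ± 5.08, 86.3% ± 1.69 and 65.0% ± 7.94 of the sum in control, CR, EX and CREX muscle (SD over the same libraries). These shares are descriptions of the levels tested above.

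**Figure D1:**
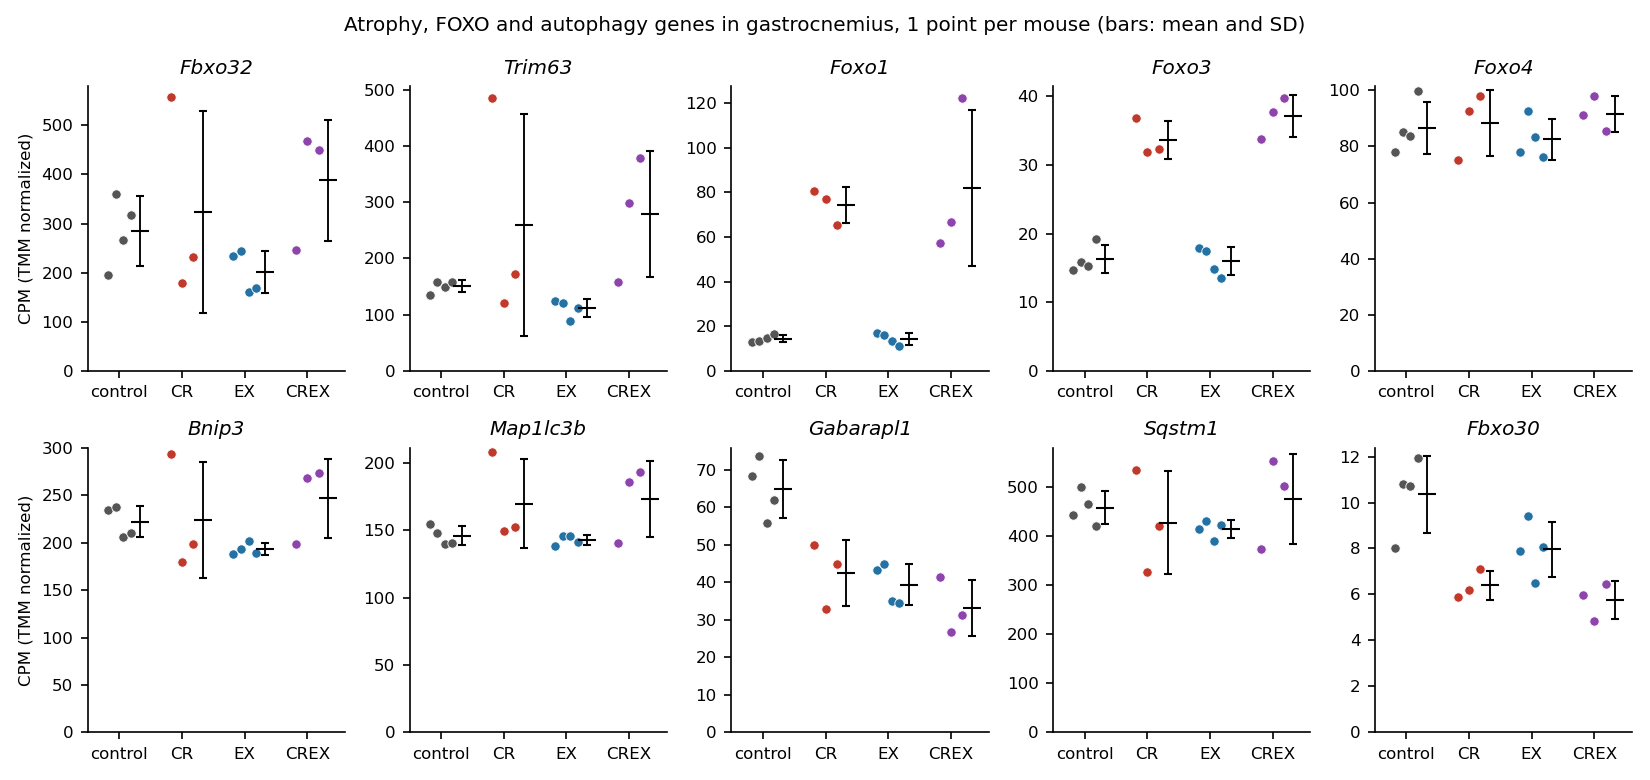
TMM-normalized CPM of the 10 genes in gastrocnemius of control, CR, EX and CREX mice, 1 point per library in replicate order, with the mean and SD of each group beside its points and each vertical axis starting at 0. Foxo1 and Foxo3 separate the restricted from the freely fed groups, Gabarapl1 is highest in the controls, and in Fbxo32, Trim63, Bnip3 and Map1lc3b 1 CR point and 2 CREX points stand above the rest.

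The ligase genes Trim63 and Fbxo32 were high in some restricted libraries and not in others. Trim63 stood at 136, 158, 150.0 and 159 CPM in control muscle and at 485, 121 and 172 CPM in CR muscle. The CR 1 library was above every control and the other CR libraries lay around the control range, so the groups overlapped (log2 fold change 0.80 ± 0.40, edgeR adjusted p = 0.219). In EX muscle it stood at 125, 121, 88.9 and 112 CPM and in CREX muscle at 159, 299 and 379 CPM. All CREX libraries lay above all EX libraries, CREX 1 by the least (fold change 2.50, log2 fold change 1.32 ± 0.27, edgeR adjusted p = 0.0197). The call was lost when CREX 2, EX 2, EX 3 or EX 4 was left out (edgeR adjusted p up to 0.0695), while the log2 fold change stayed between 1.03 and 1.60.

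Fbxo32 followed the same libraries. It stood at 195, 361, 267 and 318 CPM in control and 558, 179.7 and 231 CPM in CR muscle, where CR 1 was the highest of all SkM libraries and CR 2 was below every control (log2 fold change 0.19 ± 0.37, edgeR adjusted p = 0.770). It stood at 234, 243, 160.1 and 168 CPM in EX and 247, 467 and 449.9 CPM in CREX muscle (fold change 1.93, log2 fold change 0.95 ± 0.24, edgeR adjusted p = 0.0362). The CREX and EX libraries did not overlap, but the lowest CREX and the highest EX library nearly met. Without CR 1, the log2 fold changes between CR and control muscle turned to -0.48 for Fbxo32 and -0.05 for Trim63 (edgeR adjusted p = 0.179 and 0.861). Between CREX and EX muscle the call of Fbxo32 was lost when CREX 2, CREX 3 or any EX library was left out (edgeR adjusted p up to 0.128), with no filter on low counts (edgeR adjusted p = 0.0711) and in 1 fit over all SkM groups (0.0823).

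Fbxo30, the least abundant ligase gene, moved the other way. It stood at 8.003, 10.8, 10.7 and 11.9 CPM in control and 5.88, 6.20 and 7.10 CPM in CR muscle, and every CR library was below every control library (log2 fold change -0.69 ± 0.15, edgeR adjusted p = 0.0131). In EX muscle it stood at 7.87, 9.41, 6.51 and 8.06 CPM and in CREX muscle at 5.99, 4.84 and 6.46 CPM. The CREX libraries were below all EX libraries, CREX 3 by a small margin, and the difference was not called (log2 fold change -0.46 ± 0.16, edgeR adjusted p = 0.0808).

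The autophagy genes gave 1 call in these comparisons. Gabarapl1 stood at 68.4, 73.5, 55.9 and 61.8 CPM in control muscle and 49.9, 32.8 and 44.9 CPM in CR muscle. All CR libraries were below all controls, and the gene fell to 0.658 of its control level (log2 fold change -0.60 ± 0.16, edgeR adjusted p = 0.0303). This call was lost when CR 2, CR 3, control 1 or control 2 was left out (edgeR adjusted p up to 0.0915). Between EX (43.2, 44.9, 34.9 and 34.6 CPM) and CREX muscle (41.5, 26.8 and 31.2 CPM) the libraries overlapped and the gene was not called (log2 fold change -0.25 ± 0.16, edgeR adjusted p = 0.319).

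Map1lc3b, the gene of the LC3B protein used to mark autophagosomes, was not called. It stood at 155, 148, 140.2 and 141 CPM in control, 208, 149 and 152 CPM in CR, 138, 146, 146 and 141 CPM in EX and 141, 186 and 193 CPM in CREX muscle. CR 1, CREX 2 and CREX 3 were the highest libraries and the other restricted libraries lay within or close to the freely fed range (log2 fold changes 0.22 ± 0.14 and 0.28 ± 0.12, with edgeR adjusted p = 0.320 and 0.149). Bnip3, which recruits autophagosomes to mitochondria, stood at 234, 238, 207 and 209.9 CPM in control, 294, 180.3 and 199 CPM in CR, 188, 194, 202 and 189.6 CPM in EX and 199, 269 and 274 CPM in CREX muscle. The same 3 libraries were the highest, and the groups overlapped in both comparisons (log2 fold changes 0.02 ± 0.17 and 0.36 ± 0.13, with edgeR adjusted p = 0.953 and 0.0874). Sqstm1, the cargo receptor gene, ranged over 421 to 500.1 CPM in control, 326 to 535 in CR, 389 to 431 in EX and 374 to 552 CPM in CREX muscle, with log2 fold changes of -0.09 and 0.20 (standard errors 0.17 and 0.14, with edgeR adjusted p = 0.758 and 0.340). Its range was wider in the restricted groups than in the freely fed groups.

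Training without restriction had 1 called member. Gabarapl1 fell from 64.9 ± 7.68 CPM (SD, n = 4) in control to 39.4 ± 5.42 CPM (SD, n = 4) in EX muscle, with no overlap of libraries (log2 fold change -0.72 ± 0.11, edgeR adjusted p = 0.0279), and 0.0775% of 12907 genes were called. It ranked eighth of these genes by p. The call was lost when control 2, control 3, EX 1, EX 3 or EX 4 was left out (edgeR adjusted p up to 0.122) and in 1 fit over all SkM groups (edgeR adjusted p = 0.362) and with the slow fibre score as a covariate (0.0724). All 10 genes had a log2 fold change below 0, with Foxo1, Foxo3 and Map1lc3b at only -0.005, -0.03 and -0.04. The median over all genes tested was 0.0002, and the shared direction of the 10 genes was not tested. Trim63 and Bnip3 were below all controls in every EX library without being called (log2 fold changes -0.43 and -0.21, with edgeR adjusted p = 0.198 and 0.659), and Fbxo32 and Fbxo30 gave -0.50 and -0.39 (edgeR adjusted p = 0.611 and 0.536). The share of all genes whose libraries did not overlap was not counted.

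Between CREX and CR muscle, which asks what training added under restriction, edgeR called 0 of the 10 genes, 0 had an unadjusted p under 0.05 and DESeq2 also called 0, with 0% of 13068 genes called. The smallest adjusted p of a member was 0.999. For Foxo1 the log2 fold change was 0.13 with a standard error of 0.27, and for Trim63 it was 0.10 with a standard error of 0.57, and a difference of that size was not detectable with 3 libraries a group. The test of whether restriction acted differently in sedentary and trained muscle (the interaction of CR and EX over all 14 libraries) also called 0 of the 10 in edgeR and in DESeq2, with 0 at an unadjusted p under 0.05 and 0% of 13610 genes called. Its log2 differences for Fbxo32 and Trim63 were 0.78 and 0.55 with standard errors of 0.52 and 0.57 (edgeR adjusted p = 0.941 for both), so the calls of these genes in trained mice and not in sedentary mice are no test of a difference between them.

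The SkM libraries with the highest levels were largely the same across these genes, a pattern noticed after the values were seen. The share of all genes with the same highest libraries was not counted, so the pattern is not shown to be particular to these genes. CR 1, CREX 2 and CREX 3 were the 3 highest of 14 libraries for 6 members: Fbxo32, Trim63, Foxo3, Bnip3, Map1lc3b and Sqstm1. They were also the 3 highest for the muscle fibre score, the mean log2(CPM + 1) of 10 muscle fibre genes, at 14.12, 13.99 and 13.82, with the next library at 13.64. These 10 genes include fast fibre genes such as Myh4 and genes not particular to fast fibres, such as Acta1 and Ckm. For Trim63 the lowest of the 3 stood at 299 CPM and the next library, CR 3, at 172 CPM. CREX 2 and CREX 3 also had the lowest slow fibre scores, 3.47 and 2.25, whereas CR 1 at 7.73 lay within the control range of 7.14 to 7.94. With the slow fibre score as a covariate, Trim63 and Fbxo32 were not called between CREX and EX muscle (log2 fold changes 0.55 and 0.37, with edgeR adjusted p = 0.239 and 0.508). With the muscle fibre score as a covariate, an alternative added after the data were seen, they were 0.80 and 0.63 (edgeR adjusted p = 0.465 and 0.574). In that fit Foxo1 kept its size and lost its call between CREX and EX muscle (log2 fold change 2.50, edgeR adjusted p = 0.152), Fbxo30 lost its call between CR and control muscle (-0.43, edgeR adjusted p = 0.160), and Foxo3 stayed called in both comparisons. The muscle fibre score did not overlap between CR (13.56 to 14.12) and control muscle (13.10 to 13.42). It overlapped little between CREX (13.51 to 13.99) and EX muscle (13.28 to 13.57). For CR against control the fit cannot separate this score from the diet, so a kept or lost call decides nothing about fibre make-up. No measure of fibre make-up other than these transcripts was available, and its part in the levels was not tested further.

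**Figure D2:**
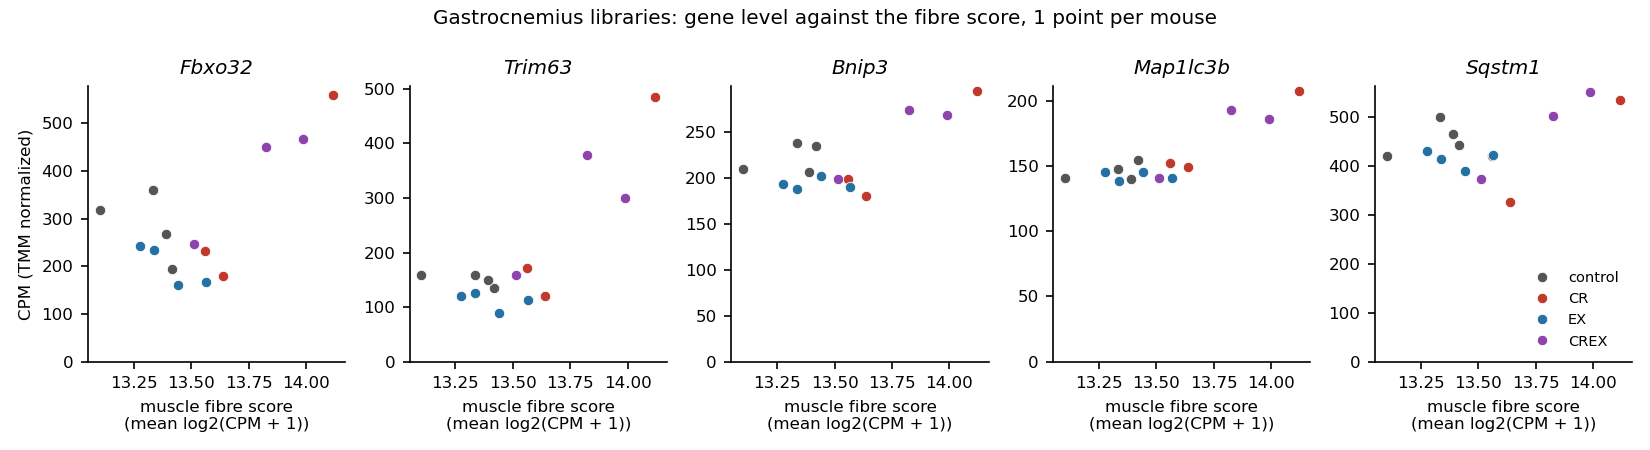
TMM-normalized CPM of 5 members (vertical axes, from 0) against the muscle fibre score (horizontal axes, mean log2(CPM + 1) of 10 muscle fibre genes) in the 14 SkM libraries, coloured by group. The 3 points at the right of each panel are CR 1, CREX 2 and CREX 3, with scores of 13.82 to 14.12, and they are the highest points of every panel.

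The genes whose log2 CPM followed the ligase genes most closely over the 14 SkM libraries were looked for among 13609 genes, as a description. For Fbxo32 the closest was Trim63 (Pearson r = 0.918), followed by Mknk2 (0.896), Npc1 (0.895), Pdlim5 (0.893) and Lpin1 (0.891). For Trim63 they were Zfyve1 (r = 0.966), Mknk2 (0.964), Pdlim5 (0.941), Surf4 (0.928) and Prpf19 (0.928). These values share the libraries, their groups and their fibre scores. Zfyve1 averaged 24.7 ± 7.91 CPM (SD, n = 3) in CR and 20.2 ± 0.551 CPM (SD, n = 4) in control muscle, and Trim63 259 ± 197 CPM (SD, n = 3) in CR muscle.

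The other genes of the pathway were counted in lists of genes known to act in it. Of 20 further ubiquitin ligases, deubiquitinases and conjugating enzymes linked to muscle wasting, edgeR called 0 between CR and control muscle and 0 between CREX and EX muscle, with 4 and 8 at an unadjusted p under 0.05, and DESeq2 called 0 and 1. The list medians were 0.12 and 0.14 on the log2 scale, against 0.005 and 0.003 over all genes tested. Fbxo40 in CR muscle and Cblb in CREX muscle had an adjusted p under 0.05 and stayed below the fold minimum, at -0.42 and 0.57 on the log2 scale. Of 29 genes of autophagy initiation and membrane conjugation, Wipi1, which binds the lipid that seeds the autophagosome, fell in CR (log2 fold change -0.64 ± 0.15, edgeR adjusted p = 0.0194) and in CREX muscle (log2 fold change -0.61 ± 0.17, edgeR adjusted p = 0.0440). EdgeR called no gene of this list higher in CREX muscle and DESeq2 called 1. In CREX muscle Map1lc3a and Atg9a gave 0.58 and 0.52 (edgeR adjusted p = 0.0347 and 0.0168, below the fold minimum). The list medians were -0.04 and 0.12. Ulk1, the kinase that starts autophagy, gave -0.45 in CR muscle (edgeR adjusted p = 0.0339, below the fold minimum). Of 13 selective autophagy receptors, edgeR and DESeq2 called 0 in CR muscle (2 at an unadjusted p under 0.05) and 1 rose in CREX muscle, the mitophagy receptor Optn (log2 fold change 0.81 ± 0.16, edgeR adjusted p = 0.0162), with medians of 0.06 and 0.13. Fundc1, a mitophagy receptor of the outer mitochondrial membrane, gave -0.45 and -0.47 (edgeR adjusted p = 0.0178 and 0.0337, below the fold minimum). Of 12 genes of lysosomes and TFEB, edgeR and DESeq2 called 0 in either comparison, with 5 and 6 at an unadjusted p under 0.05 in edgeR (medians 0.02 and 0.23), and the protease gene Ctsl gave 0.55 and 0.45 (edgeR adjusted p = 0.0636 and 0.0418).

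Of 18 regulators upstream of the FOXO factors, 2 rose and 2 fell in CR muscle and 2 rose and 1 fell in CREX muscle (edgeR), with medians of 0.07 and 0.18, where 9.60% and 8.87% of all genes were called. Pik3r1, which encodes the regulatory subunit of PI3-kinase, averaged 10.7 ± 1.43 CPM in control and 42.8 ± 15.0 CPM in CR muscle (SD, n = 4 and 3) and 12.5 ± 2.47 CPM in EX and 46.6 ± 19.0 CPM in CREX muscle (SD, n = 4 and 3). It rose in both comparisons (log2 fold changes 1.995 and 1.90, with edgeR adjusted p = 4.19e-04 and 0.0123). Foxo6, a FOXO factor outside the 10 genes, fell in both (-1.60 and -2.34, edgeR adjusted p = 0.00650 and 0.00783). Sgk1, a kinase that phosphorylates FOXO factors, rose in CR muscle (log2 fold change 0.95 ± 0.24, edgeR adjusted p = 0.0272). Irs1, the adaptor below the insulin receptor, fell in CR muscle (-0.62, edgeR adjusted p = 0.0381) and Nr3c1, the glucocorticoid receptor gene, rose in CREX muscle (0.63, edgeR adjusted p = 0.0386), both named after their values were seen.

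Of 19 other genes known as FOXO targets, 4 rose and 1 fell in CR muscle and 6 rose and 1 fell in CREX muscle (edgeR), with medians of 0.13 and 0.71, against the same 9.60% and 8.87% of all genes. No test compared a list with other genes. Ddit4, an inhibitor of mTORC1, averaged 9.16 ± 7.56 CPM in control and 85.7 ± 58.2 CPM in CR muscle (SD, n = 4 and 3) and 6.95 ± 4.25 CPM in EX and 75.6 ± 27.2 CPM in CREX muscle (SD, n = 4 and 3). It had the largest increase of the list in both comparisons (log2 fold changes 3.23 ± 0.77 and 3.44 ± 0.57, with edgeR adjusted p = 0.0321 and 0.0168). Sesn1, which also restrains mTORC1, rose by 0.88 and 0.96 on the log2 scale (edgeR adjusted p = 0.0134 and 0.00167). Klf15, a transcription factor of amino acid breakdown, rose by 0.91 and 1.10, and Gadd45a, which is linked to denervation atrophy, by 1.01 and 0.71 (edgeR adjusted p at most 0.0349). Cat, the catalase gene, fell in CR muscle (-0.68, edgeR adjusted p = 0.00220). Cdkn1a, a cell cycle inhibitor gene, rose in CREX muscle (1.53, edgeR adjusted p = 0.0116), as did the translation repressor gene Eif4ebp1 (1.21), while the superoxide dismutase gene Sod2 fell (-0.61; edgeR adjusted p = 0.0138 and 0.0313, both named after their values were seen). Between EX and control and between CREX and CR muscle, edgeR called 0 of the 111 genes of the 6 lists, with 11 and 3 at an unadjusted p under 0.05, and DESeq2 called 1 and 0. Over all lists, edgeR called 10 of 111 genes in CR and 12 of 111 in CREX muscle, which is near the background of 9.60% and 8.87% of all genes, and DESeq2 called 11 and 17. With each library left out in turn, the edgeR counts ran from 6 without CR 1 to 11 without control 1 in the first comparison, and from 5 without CREX 2 to 15 without CREX 1 in the second.

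**Figure D3:**
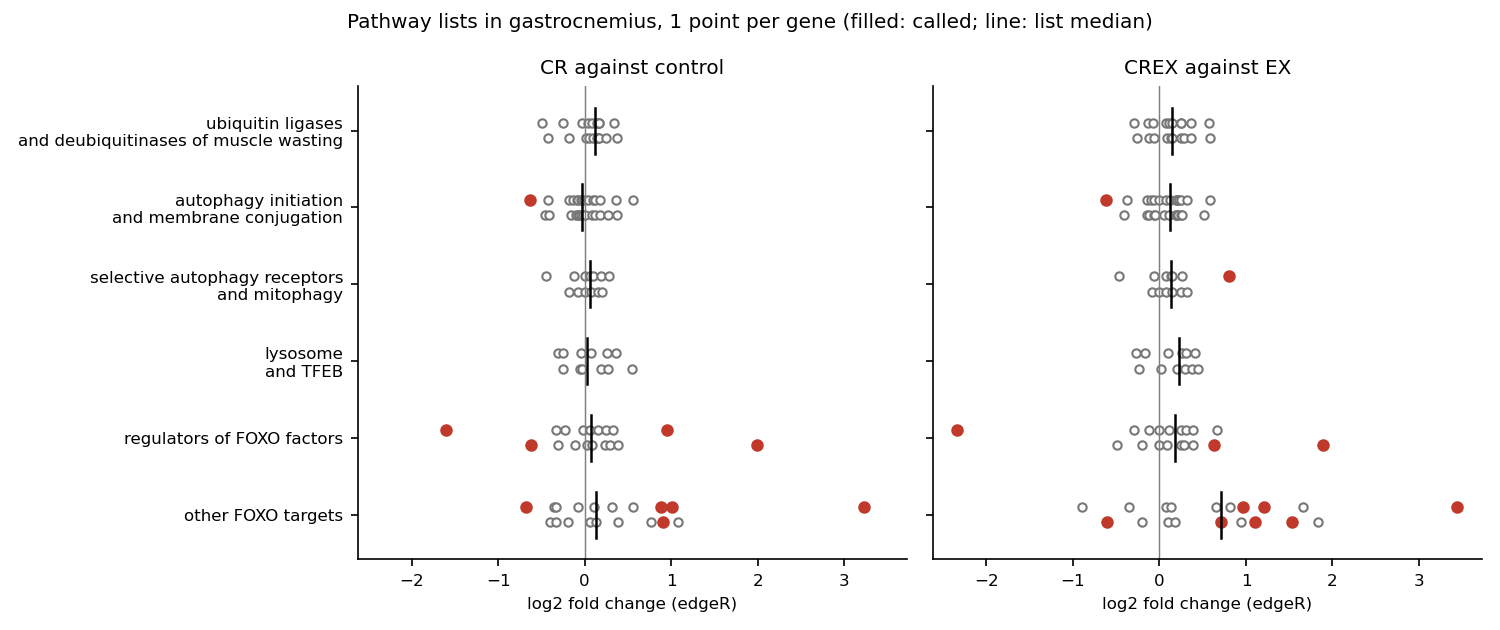
Log2 fold changes (edgeR, horizontal axes) of the genes of 6 pathway lists in gastrocnemius, restricted against freely fed, for sedentary mice (CR against control) and trained mice (CREX against EX), 1 point per gene, with called genes filled and the list median as a vertical line. The lists of FOXO regulators and other FOXO targets hold 9 of the 10 filled points of CR against control and 10 of the 12 of CREX against EX, and the ligase and lysosome lists hold none. The lists were not tested against each other, and all 111 genes together were called about as often as all genes (9.60% and 8.87%).

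In BAT, Foxo1 was not among the called genes. It stood at 75.3, 49.5 and 89.0 CPM in control, 72.0, 51.3, 74.1 and 74.0 CPM in CR, 33.2, 58.7, 61.1 and 61.7 CPM in EX and 56.4, 74.6, 49.9 and 57.2 CPM in CREX mice. The groups overlapped and restriction gave no call (log2 fold changes -0.07 ± 0.22 and 0.14 ± 0.21, with edgeR adjusted p = 0.849 and 0.725). The difference between the tissues was tested in 1 fit over the libraries of both, as BAT minus SkM: the log2 effect of CR on Foxo1 differed between BAT and SkM by -2.43 ± 0.25 (edgeR adjusted p = 8.67e-05), and that of CREX against EX by -2.36 ± 0.37 (edgeR adjusted p = 0.00601). This fit treated BAT and SkM libraries as independent, and its standard errors and p-values would not account for mice that gave both tissues. Foxo1 was the 1 member of 10 called in either test, where 7.58% of 14369 and 5.58% of 14410 genes had an adjusted p under 0.05. In level, the BAT libraries of all groups (33.2 to 89.0 CPM) overlapped the range of restricted SkM (57.5 to 122 CPM) and reached below it. They lay above freely fed SkM, with the reservation that the tissues were scaled separately.

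Foxo3 was the 1 member called in BAT, in both comparisons. It stood at 14.9, 9.38 and 10.8 CPM in control and 24.3, 21.1, 15.8 and 15.9 CPM in CR mice, and at 8.77, 10.8, 11.8 and 12.1 CPM in EX and 16.4, 15.1, 22.9 and 14.9 CPM in CREX mice. The restricted libraries lay above all freely fed libraries of their comparison (log2 fold change 0.72 ± 0.21, edgeR adjusted p = 0.0414 for CR, log2 fold change 0.66 ± 0.16, edgeR adjusted p = 0.0330 for CREX), against 10.7% of 13323 and 4.48% of 13251 genes called. The calls were lost without CR 1, CR 2, control 2 or control 3 in the first comparison (edgeR adjusted p up to 0.127) and without CREX 1, CREX 3 or EX 1, 2 or 3 in the second (up to 0.0776, or a fold change below the minimum without CREX 3). The first was also lost with no filter on low counts (edgeR adjusted p = 0.0988) and the second with the muscle fibre score as a covariate (log2 fold change 0.66, edgeR adjusted p = 0.0544). Whether its effect differed between the tissues was not shown (edgeR adjusted p = 0.442 and 0.130).

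Map1lc3b stood at 173, 158 and 175 CPM in control and 201, 231, 193 and 187 CPM in CR mice, and at 129.7, 146, 141 and 156 CPM in EX and 191, 184, 224 and 206 CPM in CREX mice. No libraries overlapped in either comparison, and its adjusted p was under 0.05 in both while the change stayed below the fold minimum (log2 fold change 0.27 ± 0.09, edgeR adjusted p = 0.0472 for CR, log2 fold change 0.48 ± 0.08, edgeR adjusted p = 0.00939 for CREX). Sqstm1 was higher and Foxo4 lower in every CR library than in every control library without being called (log2 fold changes 0.27 and -0.22, with edgeR adjusted p = 0.0556 and 0.0582). Bnip3 gave 0.41 between CREX and EX (edgeR adjusted p = 0.124), with EX libraries from 174 to 245 CPM and CREX libraries from 228 to 356 CPM.

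**Figure D4:**
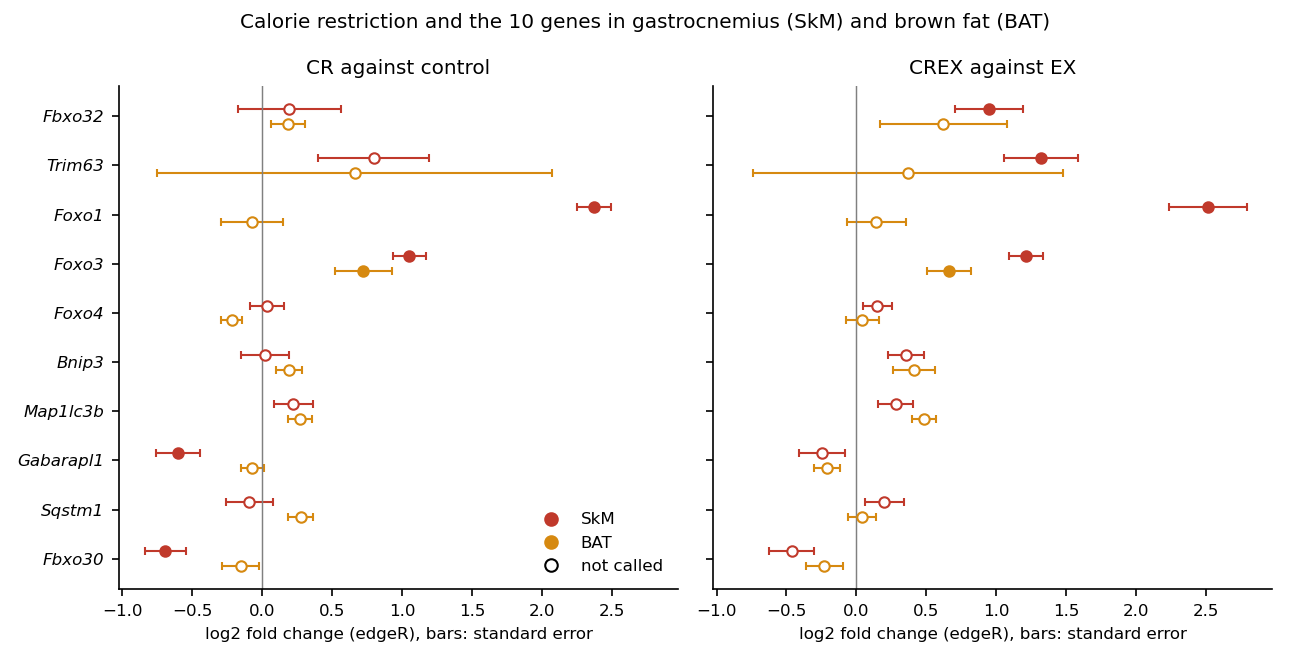
Log2 fold changes of the 10 genes (edgeR, horizontal axes, with standard errors as bars) of restriction in sedentary mice (CR against control) and in trained mice (CREX against EX), in SkM and in BAT, with filled points for called genes. Foxo1 lies above 2 in SkM and near 0 in BAT, and Foxo3 is filled in both tissues and both comparisons.

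The muscle ligase genes were low in BAT, and their levels differed between libraries, as did muscle fibre transcripts. Fbxo32 ranged from 7.13 to 36.0 CPM and Trim63 from 0 to 7.68 CPM over the 15 BAT libraries. Trim63 was listed with no count in control 3, CR 1 and EX 4, whose muscle fibre scores of 0.42, 1.57 and 0.70 were the 3 lowest. A count of 0 allows up to 3 counts. CREX 3 had the highest fibre score (8.96) and the highest Fbxo32 (36.0 CPM) and Trim63 (7.68 CPM), and EX 3 (score 8.20) had the second highest levels with 18.7 and 6.52 CPM. EX 2, second by score (8.31), stood lower, at 13.1 CPM of Fbxo32, below CREX 1 and CREX 4, and 2.97 CPM of Trim63, below CREX 4. Neither gene was called in any BAT comparison, the smallest adjusted p being 0.294 for Fbxo32 and 0.665 for Trim63 (edgeR). Foxo3 had high and low libraries at both ends of the score. Foxo1 stood at 49.9, 58.7, 61.1 and 57.2 CPM in CREX 3, EX 2, EX 3 and CREX 4, which had the highest scores. It stood at 89.0, 61.7 and 72.0 CPM in control 3, EX 4 and CR 1, which had the lowest. In the libraries between, Foxo1 ran from 33.2 to 75.3 CPM. What part the muscle transcripts had in the BAT levels of the ligase genes was not tested.

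**Figure D5:**
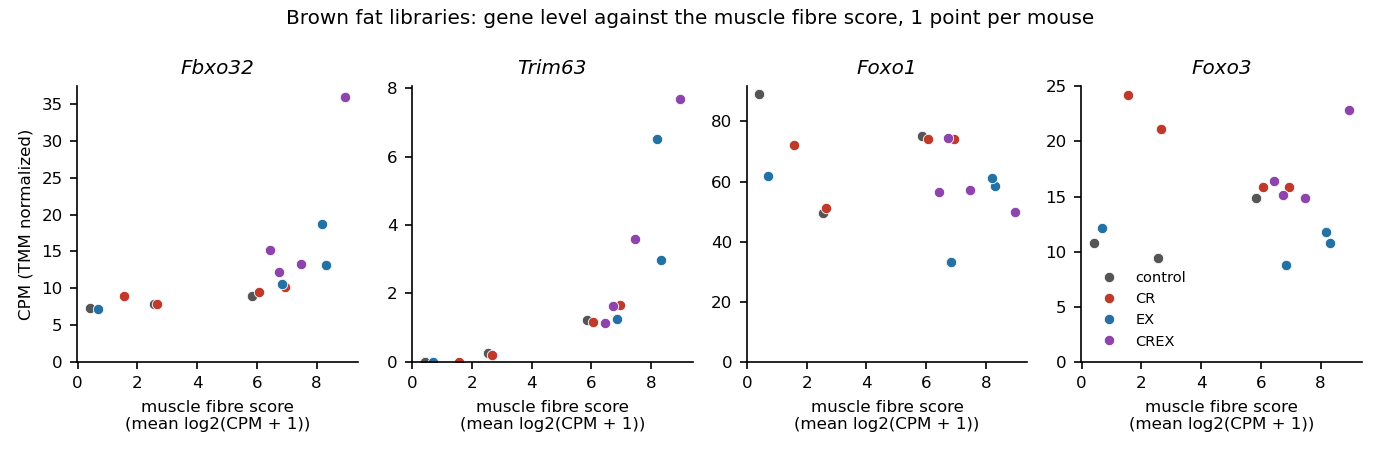
TMM-normalized CPM of Fbxo32, Trim63, Foxo1 and Foxo3 (vertical axes, from 0) against the muscle fibre score (horizontal axes, mean log2(CPM + 1) of 10 muscle fibre genes) in the 15 BAT libraries, coloured by group. Fbxo32 and Trim63 are highest in the point farthest to the right, where CREX 3 has a score of 8.96.

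For training in BAT, edgeR and DESeq2 called 0 between EX and control mice, where 0% of 13407 genes were called and 1 member, Map1lc3b, had an unadjusted p under 0.05 (log2 fold change -0.22, edgeR adjusted p = 0.597). Between CREX and CR mice both tools called 0 as well, with 0.00763% of 13112 genes called by edgeR. There Fbxo32 and Gabarapl1 had an unadjusted p under 0.05 and libraries that did not overlap (log2 fold changes 1.07 and -0.28, with edgeR adjusted p = 0.602 and 0.5676). The share of all genes whose libraries did not overlap was not counted in BAT either. Muscle fibre scores were 6.44 to 8.96 in CREX and 1.57 to 6.95 in CR libraries. Over the alternatives run, the log2 fold change of Fbxo32 ranged from 0.55 to 1.24. What part muscle transcripts had in it was not tested further. The interaction of CR and EX in BAT gave 0 called members by either tool, 0 at an unadjusted p under 0.05 and 0% of 13922 genes called.

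Over all pathway lists in BAT, edgeR called 9 of 111 genes in CR mice and 4 of 111 in CREX mice, against 10.7% and 4.48% of all genes, and DESeq2 13 and 6. The ligase list of 20 genes held 3 of the 9 in CR mice, against the same 10.7% of all genes. All 3 were higher: Fbxo31, Fbxo40 and Cblb (log2 fold changes 1.08, 1.70 and 1.61, with edgeR adjusted p = 0.0333, 0.0285 and 0.0315). Muscle fibre genes summed to 22.5 to 1609 CPM in CR and 3.55 to 750 CPM in control BAT libraries. What part muscle transcripts had in these ligase levels was not tested. In CREX mice Fbxo31 and Cblb rose (1.27 and 1.03) and Nedd4l fell (-0.86). Atg101 and Map1lc3a, a subunit of the ULK1 complex and a relative of LC3B, fell in CR mice (-0.65 and -0.60), and Sgk1 fell there (log2 fold change -1.49, edgeR adjusted p = 0.00526), where it had risen in SkM (log2 difference BAT minus SkM -2.42 ± 0.37, edgeR adjusted p = 0.00226). Pik3r1 and Klf15 rose in CR mice (0.80 and 0.92) and Sesn1 in both comparisons (1.11 and 0.86). Of the receptor and lysosome lists, edgeR and DESeq2 called 0 in either comparison, with 5 and 7 genes at an unadjusted p under 0.05 between CR and control and 5 and 5 between CREX and EX in edgeR. The genes of this paragraph were named after their values were seen.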

How the data were processed

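Total RNA of gastrocnemius and brown adipose tissue was sequenced in paired-end reads. The authors trimmed the reads with trim-galore, aligned them to mm10 with STAR 2.7.10a and summed them per gene with RSEM (versions per the submitters' processing notes: RSEM 1.2.28 and, for their own comparisons, DESeq2 1.3.40). The study's methods give other versions of RSEM and DESeq2. The deposited table holds RSEM expected counts, not normalized, for 24770 symbols and 29 libraries. 27 symbols had been turned into dates and 2 were duplicated, none of them a member. No strand setting is given in the sources used here.

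Groups and replicate numbers were taken from the labels. The design text counts 4 CR and 4 CREX muscle samples, and 3 of each were analysed here. Expected counts were rounded to whole numbers. Genes with low counts were removed with filterByExpr and libraries were scaled by TMM, and each pair of groups was fitted alone with glmQLFit (robust) and glmQLFTest in edgeR 4.0.16 (limma 3.58.1, R 4.3.3). P-values were adjusted by Benjamini-Hochberg over all genes tested, with a threshold of 0.05 and a fold change minimum of 1.5, which the interaction and the tests of a difference between tissues did not use. The standard error is the log2 fold change divided by the square root of F. Correlations used log2 CPM with a prior count of 2, and marker scores a pseudocount of 1. Levels per kb used the joined length of all annotated exons of a gene in the mm10 gene models, which may differ from the lengths RSEM used. The code was tested on simulated data.

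All 10 genes are reported in every comparison where their values bear on it. From each pathway list, at most 3 genes, taken in order of p, were named for CR against control and at most 3 for CREX against EX muscle, together with every gene called in both, and from each marker list its 3 most abundant genes. For Fbxo32 and Trim63 the 5 genes most correlated over SkM libraries were named. The members and lists were chosen with earlier results of these data known. The alternatives were DESeq2 1.42.0, its size factors in edgeR, no filter, at least 10 counts in every library, a replicate block, 1 fit over all groups of a tissue, no fold change minimum, muscle fibre scores as covariates and each library left out in turn. The alternative tests of the pathway lists and the muscle fibre score covariate in SkM were chosen after seeing the data. Labels do not state that libraries of a group came from separate mice, so that p-values measure the spread between these samples. Of the genes the rule for pathway lists would name, 1 is not reported here.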

Additional observations from a re-analysis of the deposited data

Results flagged for a closer look

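Of 50 sets of 4 libraries, 1 gene in 1 group each, 5 held a library far from the others of its group, all in BAT. The rule would flag about 1 in 20 sets of independent, normally distributed values. The sets here share libraries, so whether 5 of 50 is more than chance gives was not tested. Groups of 3 libraries, which are CR and CREX muscle and control BAT, were not examined by this rule. In BAT, Fbxo32 stood at 36.0 CPM in CREX 3, and the next CREX library at 15.1 CPM. Foxo1 stood at 51.3 CPM in CR 2 against 72.0 CPM in the next library, and at 33.2 CPM in EX 1 against 58.7 CPM. Bnip3 stood at 174 CPM in EX 1, with the next EX library at 236 CPM. Sqstm1 stood at 231 CPM in CR 2 against 189.7 CPM in the next library. BAT CR 2 and EX 1 each stood apart for a pair of members.

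The effect of restriction on Foxo1 differed between the tissues by a test of the difference itself. BAT minus SkM, the log2 difference was -2.43 for CR against control and -2.36 for CREX against EX, and the tests share no library.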

How the results depend on the processing

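Counts of called members are given here against the alternatives. For CR against control muscle the count stayed at 3 to 4 throughout. For CREX against EX muscle it fell from 4 to 2 with a replicate block (Trim63 at 1.25 and Fbxo32 at 0.84 on the log2 scale, edgeR adjusted p = 0.111 and 0.126), to 2 with the slow fibre score and to 1 with the muscle fibre score as a covariate, and ran from 2 to 4 with libraries left out. For EX against control muscle it was 0 with the replicate block (Gabarapl1 -0.73, edgeR adjusted p = 0.0545), 0 in 1 fit over all groups, 0 with the slow fibre score and 0 to 1 with libraries left out. For CR in BAT it was 0 with no filter, 2 with no fold change minimum and 0 to 1 with libraries left out. For CREX against EX in BAT it was 2 with no fold change minimum, 0 with the muscle fibre score and 0 to 1 with libraries left out. Tissue differences in the CR effect gave 2 calls in DESeq2 (Foxo1 and Gabarapl1) and 1 to 3 with libraries left out, and those of CREX against EX 1 to 2. The other comparisons gave 0 calls under every alternative run. Directions turned only for genes that were not called in that comparison. For CR in muscle, the log2 fold change turned to -0.038 for Bnip3 with the replicate block and to -0.019 for Foxo4 with the slow fibre score. With the muscle fibre score it turned to -0.78 for Fbxo32, -0.51 for Trim63, -0.47 for Bnip3 and -0.15 for Map1lc3b. That score did not overlap between CR and control libraries, so the fit cannot separate it from the diet. With libraries left out the log2 fold change ran from -0.48 to 0.48 for Fbxo32, -0.047 to 1.14 for Trim63, -0.24 to 0.16 for Bnip3, -0.30 to 0.069 for Sqstm1 and -0.046 to 0.13 for Foxo4. For CREX against EX in muscle it turned to 0.25 for Gabarapl1 and -0.11 for Sqstm1 with the muscle fibre score and to -0.043 for Sqstm1 with the slow fibre score. With libraries left out, Foxo1 in BAT ran from -0.28 to 0.13 for CR and from -0.021 to 0.22 for CREX against EX. The causes were not tested. Libraries that share a replicate number had correlated deviations of -0.46 to 0.48. These were few and were not compared with libraries of other numbers, so whether the numbers pair the samples was not settled. With 3 or 4 libraries a group, changes under the fold minimum and the spread among restricted muscle libraries limit what could be called, and low BAT counts limit Trim63.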
